A study of Mus musculus with 6 samples.

Results

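The variable (V) segments of the T cell receptor were followed in RNA from mouse CD4+CD25+ T cells with and without the inhibitory receptor ILT3. Members were all rows whose gene symbol starts with Trav, Trbv, Trdv or Trgv, together with the gamma and delta constant genes. The rule found 138 of 38924 rows: 109 alpha (Trav), 23 beta (Trbv), 5 delta (Trdv) and 1 gamma (Trgv2) segment. It matched no symbol starting with Trgc or Trdc, and the files name the gamma genes with the prefix Tcrg, so 9 Tcrg rows were read as a check and not counted as members. Of the 138 members, 135 had at least 1 exon read in some library and 101 passed the filter on low counts (79 Trav, 21 Trbv and Trdv1). The other 37 were 30 Trav, 2 Trbv, 4 Trdv segments and Trgv2. The rows without any read were Trav5d-3, Trav5n-3 and Trbv10, all of them annotated as pseudogenes.

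Both groups came from untreated wild-type (WT) mice, male and female, aged 10 to 16 weeks, and from spleen and mesenteric lymph nodes. CD4+CD25+ cells were sorted into ILT3+ and ILT3- cells, with 3 samples in each group, and full-length cDNA was amplified from 1 ng of RNA each. Whether the samples are separate animals, or pools of several, is not said in the sources used here. A p-value therefore reflects how much these samples vary, and part of that variation may be technical. Regulatory T cells (Tregs) are abundant in this fraction, but their share of the sorted cells was not measured.

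A V segment is joined to a J segment (alpha chain) or to D and J segments (beta chain) while the T cell matures in the thymus, and the cell and its progeny then express the joined gene. The V segment encodes most of the variable domain, including the loops CDR1 and CDR2 and the first bases of CDR3, the loop that most often touches the peptide. The share of reads on each segment therefore describes which receptors a population carries, and one segment far above its usual share would be a sign of an expanded clone. V segment reads do not show J segment, pairing or CDR3 sequence, so clones were not identified.

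Both groups carried messages of the sorted markers CD4 and CD25, and of Foxp3, which the sort did not use. Foxp3, the transcription factor of Tregs, had a mean of 1087 ± 333 CPM without ILT3 and 1077 ± 165 CPM with it (SD, n = 3). CPM is the usual depth-normalised read count, here with library sizes scaled by edgeR's TMM method. Cd4 had means of 631 ± 147 and 843 ± 270 CPM, a log2 fold change (ILT3+ over ILT3-) of 0.42. Il2ra, which encodes CD25, had means of 676 ± 263 and 839 ± 254 CPM, a log2 fold change of 0.31. None of the 5 genes read as a check of the label (Cd4, Il2ra, Foxp3, Ikzf2 and Ctla4) was called by edgeR or DESeq2. Of them, 0 had an unadjusted p under 0.05. Cd8b1, a CD8 T cell gene, ranged from 11.9 to 25.0 CPM over the 6 libraries. The libraries held 6695391 to 10242344 exon reads, so 3 reads correspond to 0.288 to 0.499 CPM.

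Summed Trbv reads were lower in ILT3+ than in ILT3- samples, while the summed Trav level overlapped between the groups. Per library, summed Trbv was 894, 737 and 705 CPM for ILT3- samples 1, 2 and 3. ILT3+ samples 1, 2 and 3 had 542, 423 and 378 CPM. The groups did not overlap, with means of 779 ± 102 and 448 ± 84.8 CPM (SD, n = 3). The exact permutation p was 0.10 (two-sided), the smallest value that 3 against 3 samples allow. The 3 ILT3- libraries had 409, 244 and 445 CPM of summed Trav, and the 3 ILT3+ libraries had 403, 207 and 289 CPM (exact permutation p = 0.50). The alpha values overlapped throughout, with sample 2 lowest in both groups. Trbv reads per Trav read were 2.18, 3.02 and 1.58 in ILT3- and 1.35, 2.04 and 1.31 in ILT3+ samples. These ratios overlapped between groups (exact permutation p = 0.20). Within each same-numbered pair, both this ratio and summed Trav were lower in the ILT3+ sample. In such bulk samples, fewer cells with a message and less message per cell cannot be told apart.

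**Figure D1:**
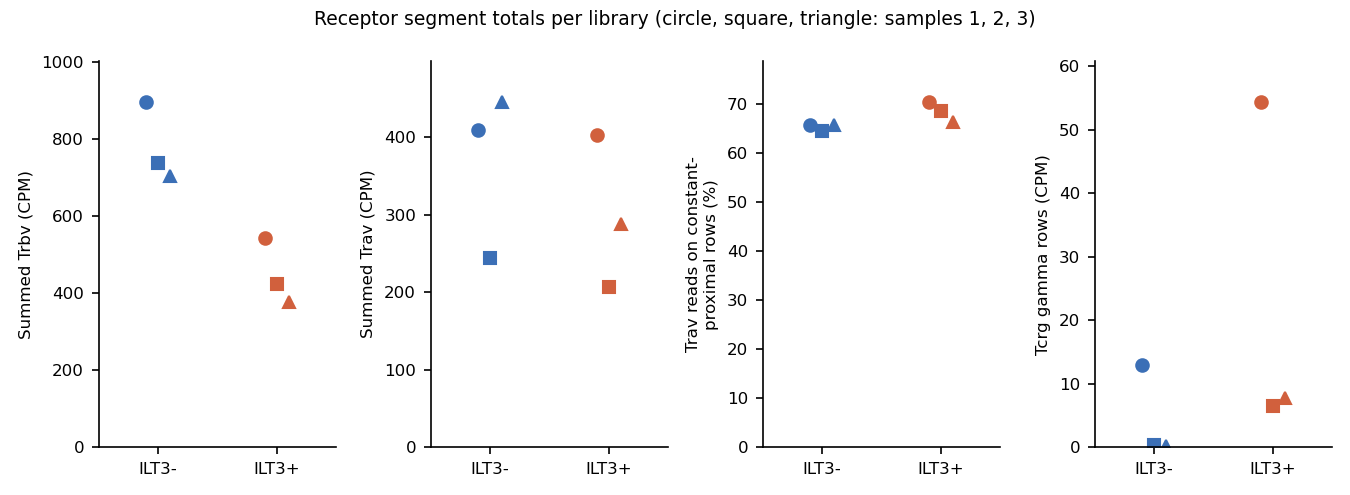
Summed Trbv and Trav levels (CPM), share of Trav reads on the constant-proximal rows (percent) and summed level of the 9 Tcrg gamma rows (CPM), 1 point per library, samples 1 to 3 as circle, square and triangle. Summed Trbv separates the groups (705 to 894 against 378 to 542 CPM), summed Trav does not, and the gamma rows are highest in ILT3+ sample 1 at 54.4 CPM.

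The constant genes are shared by all receptors of a chain. Trbc1, one of the beta constant genes, had means of 532 ± 69.5 CPM (ILT3-) and 317 ± 44.6 CPM (ILT3+), a log2 fold change of -0.75 (SE 0.19, edgeR adjusted p = 0.116). Trbc2, the other beta constant gene, had a log2 fold change of -0.65 (SE 0.23, edgeR adjusted p = 0.260). With the sample number as a block both were called lower (edgeR adjusted p = 0.010 each). Trac, the alpha constant gene, had a log2 fold change of -0.20 (edgeR adjusted p = 0.853), and the CD3 genes Cd3d, Cd3e, Cd3g and Cd247 lay between -0.45 and -0.18. Of these 7 genes edgeR called 0 without the block, with 2 at an unadjusted p under 0.05, and DESeq2 called 1. Set against their own constant genes, the V segments differed less. There were 424, 451 and 445 Trbv reads per 1000 reads of Trbc1 and Trbc2 in ILT3- samples and 398, 418 and 395 in ILT3+ samples, without overlap (exact permutation p = 0.10). Trav reads per 1000 Trac reads were 1239, 1066 and 1145 against 1101, 1063 and 1089, and overlapped.

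Across single segments, Trbv12-1 was the 1 member that edgeR called, and it was lower in ILT3+ cells. Over all 11536 genes tested, 2.05% were called in either direction and 0.251% were called lower. Of the 21 tested Trbv segments, 12 had an unadjusted p under 0.05, all of them lower. Over all 11536 genes tested, 1537 had an unadjusted p under 0.05, of which 558 were lower. All 21 had a negative log2 fold change, with a median of -0.79 and a range from -1.99 to -0.21, beside a median of 0.00 over all genes tested. CPM values of 14 of the 21 did not overlap between groups and were lower in ILT3+ samples, beside 7.83% of all genes tested. These segments share the summed Trbv level described above and are not independent of each other. Of the 79 tested Trav segments edgeR called 0, with 0 at an unadjusted p under 0.05, and DESeq2 called 0. Their median log2 fold change was -0.36 (range -1.32 to 0.95). The log2 fold change was negative in 65 of them (82.3%), beside 49.9% of all genes tested, and 4 were lower without overlap. The difference between the Trav and the Trbv fold changes was not tested.

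**Figure D2:**
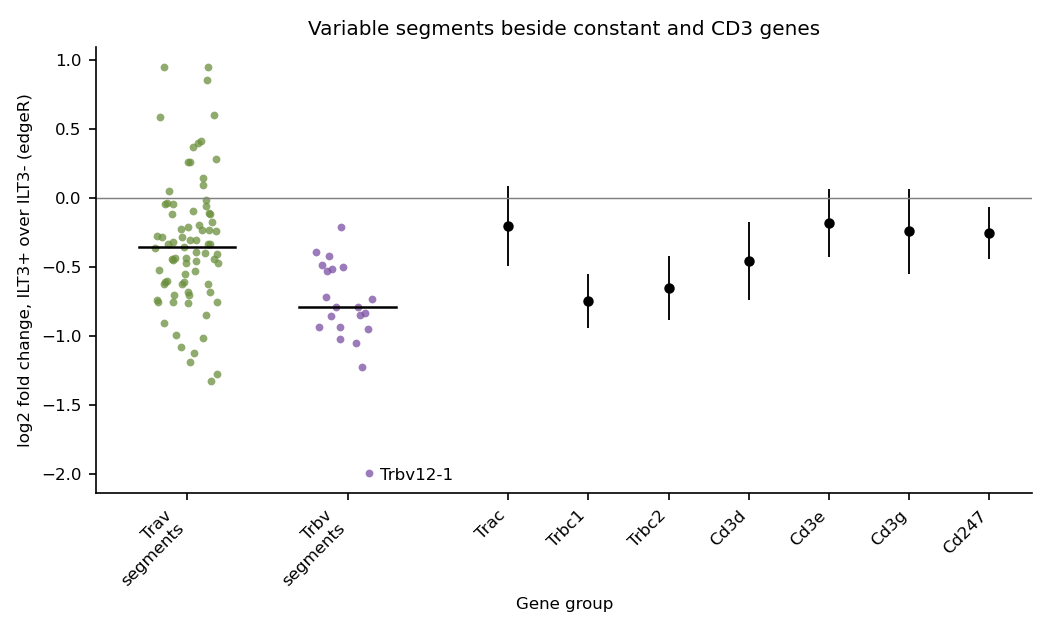
Log2 fold change (ILT3+ over ILT3-, edgeR) of each tested Trav and Trbv segment (points, with the median as a line), and of the constant and CD3 genes (points with SE as vertical lines). All 21 Trbv points lie below 0, Trbv12-1 stands lowest at -1.99, and Trbc1 and Trbc2 lie near the Trbv median of -0.79.

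The block matters for these counts. With the sample number as a block, edgeR called 4 Trbv segments lower (Trbv3, Trbv12-1, Trbv12-2 and Trbv13-2), beside 2.47% of all genes tested. DESeq2 without a block also called 4 lower (Trbv12-1, Trbv12-2, Trbv13-2 and Trbv31), beside 1.49% of the genes it tested. Sample 1 of each group stood apart from the others in gamma gene reads, as given below. Without both samples numbered 1, edgeR called 3 lower (Trbv3, Trbv12-1 and Trbv12-2), beside 1.69% of all genes tested. Trbv12-1 is the one segment on all 4 lists.

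Trbv12-1 lies on chromosome 6 of GRCm38 at 41113567 to 41114067 (plus strand), per the files. The nearest relative, Trbv12-2, lies at 41118864 to 41119364, with Trbv13-1 between them at 41116036 to 41116468. The last 240 bases of both family members are shown because the data separate these neighbours. Capitals mark the 29 positions at which they differ (87.9% identity), and the sequences are those of GENCODE M21 transcripts on GRCm38.
Trbv12-1: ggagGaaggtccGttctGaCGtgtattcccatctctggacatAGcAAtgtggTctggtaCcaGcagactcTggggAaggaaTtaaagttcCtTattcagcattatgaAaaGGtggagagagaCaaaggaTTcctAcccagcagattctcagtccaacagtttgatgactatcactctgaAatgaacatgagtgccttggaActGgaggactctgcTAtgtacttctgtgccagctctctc
Trbv12-2: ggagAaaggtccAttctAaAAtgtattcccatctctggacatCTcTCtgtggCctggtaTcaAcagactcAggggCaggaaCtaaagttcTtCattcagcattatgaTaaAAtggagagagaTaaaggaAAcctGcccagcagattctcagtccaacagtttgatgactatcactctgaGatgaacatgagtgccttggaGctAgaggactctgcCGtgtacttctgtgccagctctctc

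Their reads could be told apart, since 100% of the exon reads of both segments were counted as unique by the authors. Trbv12-1 had 397, 551 and 590 exon reads in ILT3- samples and 150, 128 and 122 in ILT3+ samples. These correspond to 66.1, 59.4 and 56.6 CPM against 18.9, 13.7 and 13.2 CPM. The groups lay far apart, and the 3 ILT3- values were close to each other. The log2 fold change was -1.99 (SE 0.25, edgeR adjusted p = 0.0140, lower in 3 of 3 samples). The call was lost when ILT3- sample 2, ILT3- sample 3, ILT3+ sample 2 or ILT3+ sample 3 was left out. Log2 fold changes were then -2.01, -2.05, -1.93 and -1.91, with edgeR adjusted p-values of 0.0650, 0.0641, 0.0896 and 0.0795. Over all genes, these fits called 35, 31, 22 and 23, beside 236 with all samples. Fits without ILT3- sample 1 or ILT3+ sample 1 kept the call and called 255 and 121 genes.

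The difference in Trbv12-1 went beyond the lower summed Trbv level. It took 7.39%, 8.06% and 8.03% of Trbv reads in ILT3- samples and 3.48%, 3.23% and 3.48% in ILT3+ samples. Wilson 95% intervals of the single shares ran from 6.72% to 8.73% in ILT3- and from 2.73% to 4.14% in ILT3+ samples, so they did not meet, though such intervals cover counting error only. The group means were 7.83% ± 0.38 and 3.40% ± 0.15 (SD, n = 3; exact permutation p = 0.10, the smallest possible). With libraries scaled to their summed Trbv reads, the log2 fold change was -1.20 (SE 0.28, edgeR adjusted p = 0.0272), and this was the 1 Trbv segment called, beside 0.165% of all genes called lower under that scaling. That call too was lost without ILT3- sample 2, ILT3- sample 3, ILT3+ sample 2 or ILT3+ sample 3, with edgeR adjusted p-values from 0.0698 to 0.111. With libraries scaled to summed Trav reads instead, the log2 fold change was -1.75 (SE 0.56) and missed the threshold (edgeR adjusted p = 0.0511).

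Trbv12-2 differed less. Levels of 54.4, 55.9 and 58.5 CPM without ILT3 faced 28.1, 30.3 and 28.8 CPM with it, and did not overlap. The log2 fold change was -0.95 (SE 0.20, edgeR adjusted p = 0.0641 and 0.0404 with the block). As a share of Trbv reads it took 7.32% ± 1.13 and 6.66% ± 1.30, which overlapped. The ratio of Trbv12-1 to Trbv12-2 reads was 1.21, 1.06 and 0.967 in ILT3- and 0.673, 0.451 and 0.457 in ILT3+ samples. The ratios did not overlap, with means of 1.08 ± 0.12 and 0.527 ± 0.13 (exact permutation p = 0.10). Summed as a family, Trbv12 took 15.2% ± 1.49 and 10.1% ± 1.26 of Trbv reads and was called lower (log2 fold change -1.41, edgeR adjusted p = 0.0140), beside 0.27% of all genes in the fit on family sums.

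Most other abundant beta segments had shares that overlapped between groups. The last 45 bases of 5 beta segments are shown because the final bases of this window begin CDR3. Capitals mark TGTGCCAGC, searched on the coding strand only, which 13 of 23 Trbv rows and 0 of 109 Trav rows carry within that window.
Trbv13-2: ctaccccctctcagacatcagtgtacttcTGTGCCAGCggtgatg
Trbv3: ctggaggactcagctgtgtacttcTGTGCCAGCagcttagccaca
Trbv5: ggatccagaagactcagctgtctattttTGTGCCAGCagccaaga
Trbv19: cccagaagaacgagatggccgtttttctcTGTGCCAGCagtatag
Trbv20: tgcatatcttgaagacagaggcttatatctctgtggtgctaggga

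Trbv13-2 was the most used beta segment on average. It took 10.9%, 15.2% and 13.6% of Trbv reads in ILT3- and 10.9%, 16.7% and 14.9% in ILT3+ samples, lowest in sample 1 of each group. Its CPM values of 97.7, 112 and 96.1 against 59.0, 70.8 and 56.2 did not overlap (log2 fold change -0.72, edgeR adjusted p = 0.128 and 0.0403 with the block). Trbv3 took 11.3% ± 1.05 and 10.9% ± 1.08, and its log2 fold change was -0.86 (edgeR adjusted p = 0.185 and 0.0280 with the block). Trbv5 took 6.85%, 7.13% and 8.79% against 9.66%, 8.23% and 11.6%, which overlapped between ILT3- sample 3 and ILT3+ sample 2. The segments Trbv16, Trbv15, Trbv1 and Trbv13-3 had overlapping shares, with group means from 4.55% to 7.42%. Between same-numbered samples, Trbv5, Trbv16, Trbv19, Trbv20 and Trbv26 had a higher share in ILT3+ in 3 of 3 pairs, and Trbv3, Trbv12-1 and Trbv12-2 a lower one, of 19 beta segments of at least 1% mean share. With 3 pairs the smallest exact p is 0.25. Of 34 alpha segments of at least 1% mean share, 7 were higher and 7 lower in 3 of 3 pairs. The signs are therefore given as a description. Together the 10 most used beta segments held 74.9% of Trbv reads, and the same 10 led when reads were divided by exon length.

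Trbv19 and Trbv20 took higher shares in ILT3+ samples without overlap, although neither level was called. Trbv19 took 5.53%, 5.31% and 5.29% in ILT3- and 7.13%, 7.45% and 6.77% in ILT3+ samples. The means of 5.38% ± 0.13 and 7.11% ± 0.34 (exact permutation p = 0.10) stayed apart when Trbv12-1 was left out of the sum (5.83% and 7.36%). Trbv20 took 2.49%, 2.21% and 2.12% against 2.51%, 3.13% and 2.80%, and overlapped once Trbv12-1 was left out. Relative to summed Trbv reads, the log2 fold change was 0.40 for Trbv19 (edgeR adjusted p = 0.247) and 0.31 for Trbv20 (edgeR adjusted p = 0.512). Shares of one sum are not independent of each other. An exact permutation p of 0.10 follows from any shares that do not overlap here and adds nothing to the separation. Among the 19 beta segments of at least 1% mean share, 1 was lower and 2 were higher without overlap. This rate is no higher than the 20.2% of all genes tested whose CPM values did not overlap in either direction, so the values of Trbv19 and Trbv20 are given as a description. Trbv21, below the filter, had 3, 5 and 2 reads in ILT3- and 0 in all ILT3+ samples, where 3 reads correspond to 0.321 to 0.378 CPM.

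**Figure D3:**
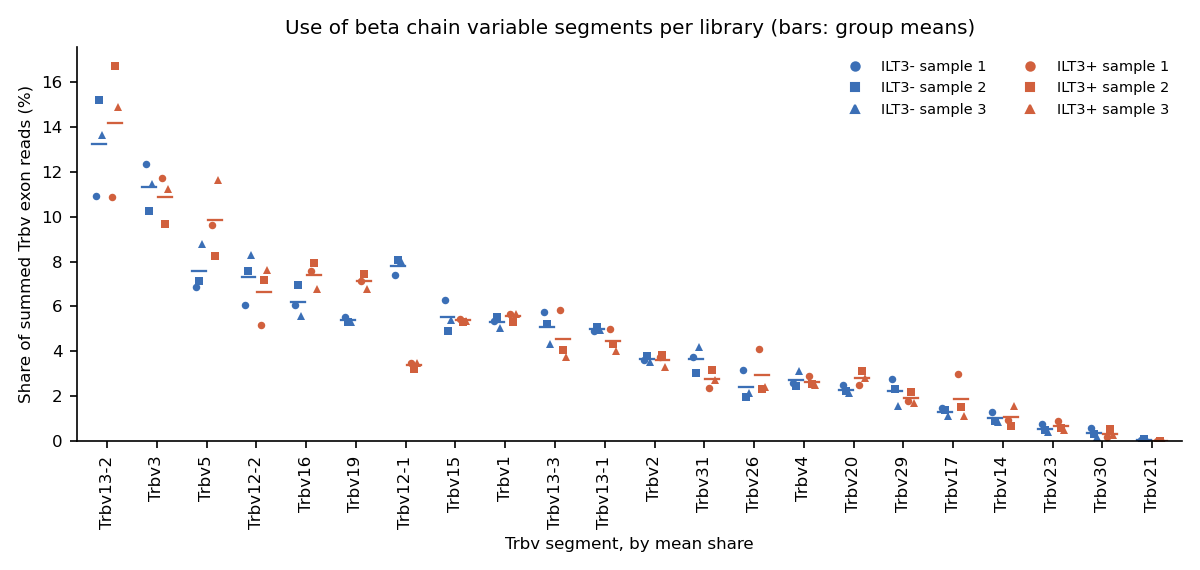
Share of summed Trbv exon reads (percent) on each of the 22 beta segments with reads, ordered by mean share, 1 point per library (circle, square, triangle for samples 1, 2, 3) and a bar at each group mean. Trbv12-1 takes 7.39% to 8.06% in ILT3- and 3.23% to 3.48% in ILT3+ samples, and Trbv19 takes 5.29% to 5.53% and 6.77% to 7.45%.

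No alpha segment was called, and alpha use was spread over many more segments. Trav reads numbered 1937 to 4640 per library, and Trbv reads 3502 to 7347. Wilson 95% intervals of a single share had half-widths of up to 0.965 percentage points for Trav and 1.18 for Trbv. The 10 most used alpha segments held 31.9% of Trav reads, and 9 of them also led per exon length. Trav7-4 was the most used, at 3.84% ± 0.53 in ILT3- and 4.25% ± 0.79 in ILT3+ samples. Trav7-2, Trav6d-6, Trav9-4, Trav4-4-dv10, Trav6-7-dv9 and Trav12-2, also among the 10, had overlapping shares with group means from 2.63% to 3.93%. Of 34 alpha segments of at least 1% mean share, 4 were lower and 2 higher in ILT3+ samples without overlap, a rate no higher than the 20.2% of all genes tested whose CPM values did not overlap in either direction.

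Their values are given as a description. Trav14-3 took 3.01%, 3.67% and 2.74% in ILT3- and 1.91%, 2.58% and 2.43% in ILT3+ samples. Its difference of means was -0.832 percentage points, but -1.29 with unique reads, -1.63 with gene reads and -0.370 per exon length. Trav6-5 took 2.46% ± 0.42 and 1.70% ± 0.37, and Trav9d-1 took 1.57% ± 0.52 and 0.821% ± 0.18. Trav13d-1 took 1.49% ± 0.23 and 1.19% ± 0.11. Trav3-3 took 3.35% ± 0.12 and 3.93% ± 0.32, and Trav12-1 took 0.729% ± 0.29 and 1.42% ± 0.34, both higher in ILT3+ samples. Each exact permutation p was 0.10, the smallest possible. Shares that do not overlap always give this value here, so it adds nothing to the separation. Trav5-4 had a larger difference of means but overlapped, at 2.32%, 1.06% and 0.991% in ILT3- and 4.16%, 3.61% and 1.91% in ILT3+ samples. Relative to summed Trav reads, edgeR called 0 Trav segments, with 0 at an unadjusted p under 0.05, beside 4.13% of all genes called in either direction under that scaling.

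Many alpha rows are near-copies, and this limits what single rows can show. The mouse alpha locus holds duplicated blocks, whose copies carry the suffixes d and n in their names (35 and 28 rows), beside 46 rows without a suffix. Between 44.6% and 49.5% of Trav exon reads per library were unique, against 99.8% to 100% of Trbv reads. As an example, the last 90 bases of Trav12d-2 and Trav12n-2 are identical, and neither had a unique read. The shared stretch is shown in lower case without capitals.
Trav12d-2 and Trav12n-2: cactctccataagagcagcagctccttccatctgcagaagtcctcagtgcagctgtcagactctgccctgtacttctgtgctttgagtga

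Of 28 alpha segments of at least 20 reads that have an identical copy among the transcripts of the locus, 22 had no unique read. The 8 alpha segments below 90% identity to any other had 96.1% to 100% unique reads. Rows with the suffix d held 27.1% ± 0.21 of Trav reads in ILT3- and 24.3% ± 0.96 in ILT3+ samples, without overlap (exact permutation p = 0.10). The share of rows without a suffix overlapped (58.3% ± 0.87 and 61.7% ± 3.23). The unique share of Trav reads was itself higher in ILT3+ samples, at 47.1% to 49.5% against 44.6% to 47.0%, without overlap. The part of read placement in these differences was not tested.

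**Figure D4:**
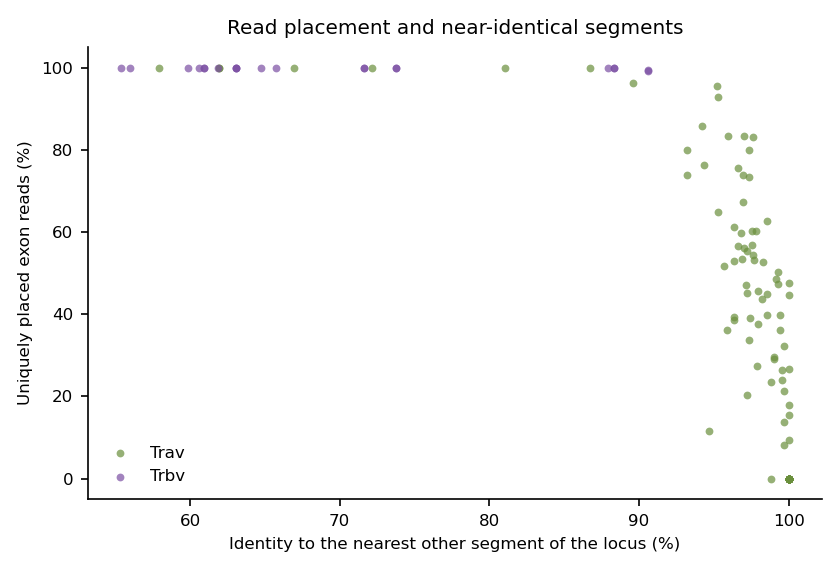
Percent of exon reads counted as unique in each Trav and Trbv segment of at least 20 reads (y axis) against the identity of its transcript to the nearest other segment of the locus (x axis, percent), 1 point per segment. Alpha segments with an identical copy fall to 0 in 22 of 28 cases, while the beta segments lie between 99.1% and 100%.

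Summed by family, which pools most copies, alpha use was led by Trav7 at 16.6% ± 0.95 in ILT3- and 16.4% ± 1.68 in ILT3+ samples, followed by Trav6 at 16.3% ± 1.26 and 14.7% ± 0.79. Trav14, Trav9 and Trav12 held 10.5% to 11.6% of Trav reads on average. Trav19 took 0.394% ± 0.13 and 0.734% ± 0.20, and Trav21 took 0.332% ± 0.10 and 0.756% ± 0.43, both higher in ILT3+ samples without overlap. Trav5 took 2.40% ± 0.92 and 4.59% ± 1.53 and overlapped, although shares of unique reads (1.90% and 4.30%) did not. Trav14 (14.1% and 10.8% of unique reads) and Trav4 (5.21% and 4.32%) likewise overlapped in all reads and did not in unique reads, with the lower share in ILT3+ samples. No alpha family was called in the fit on family sums, and 0 of the 18 families tested had an unadjusted p under 0.05.

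**Figure D5:**
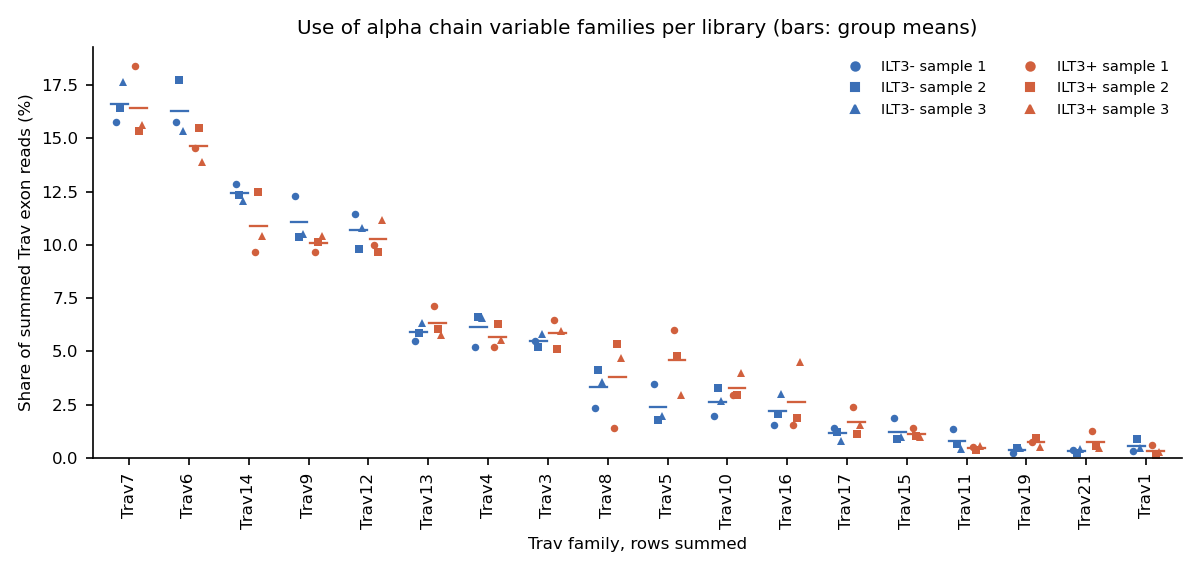
Share of summed Trav exon reads (percent) on each alpha family, ordered by mean share, 1 point per library (circle, square, triangle for samples 1, 2, 3) and a bar at each group mean. Trav7 and Trav6 lead in all 6 libraries, and the groups overlap in the large families.

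Position in the locus was also compared, since segments near the J genes are the first to be reached in alpha rearrangement. The constant-proximal 55 of 109 Trav rows held 65.8%, 64.5% and 65.7% of Trav reads in ILT3- and 70.3%, 68.6% and 66.2% in ILT3+ samples. The ranges did not overlap, with means of 65.3% ± 0.71 and 68.4% ± 2.07 (exact permutation p = 0.10). With unique reads alone the difference was 1.91 percentage points (exact permutation p = 0.20), against 3.01 with all reads. It was 2.69 points with gene reads (exact permutation p = 0.20) and 2.91 points per exon length (exact permutation p = 0.30). Rows with the suffix d lie outside the constant-proximal rows, so this comparison overlaps the one by suffix above. They are not separate results, and the part of read placement in this difference was not tested.

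Neither group was dominated by one segment. The effective number of segments, the exponential of the Shannon entropy of the shares, was 66.5, 67.1 and 67.2 for Trav in ILT3- and 63.1, 65.2 and 69.7 in ILT3+ samples (exact permutation p = 0.70). For Trbv it was 17.2, 16.1 and 15.9 against 16.8, 15.9 and 15.6 (exact permutation p = 0.60). The most used alpha segment held 4.39% to 4.55% of Trav reads in ILT3- and 3.93% to 4.90% in ILT3+ samples. It was Trav14d-1, Trav6d-6 and Trav7-2 in ILT3- samples 1 to 3, and Trav7-4, Trav7-4 and Trav7-2 in ILT3+ samples 1 to 3. The most used beta segment was Trbv3 in sample 1 of both groups (12.3% and 11.7%) and Trbv13-2 in the other libraries (13.6% to 16.7%).

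Libraries were also compared by the percent of reads that would have to move to another segment to make their use equal. For Trbv this was 8.28% to 13.1% between groups, 6.12% to 8.58% within ILT3- and 6.98% to 10.9% within ILT3+. For Trav it was 13.8% to 23.2% between groups, 16.4% to 21.0% within ILT3- and 16.2% to 20.9% within ILT3+. Beta use thus differed between groups over a range that reached above the distances within them, and alpha use spanned a similar range in both kinds of pair. Each pair of libraries varied beyond counting noise, since chi-square over the degrees of freedom ran from 2.40 to 16.1, so each was counted as 1 sample.

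Gamma and delta reads were few. The Trdv rows and Trgv2, which serve gamma-delta T cells, summed to 9.15, 3.02 and 2.59 CPM in ILT3- and 1.89, 4.91 and 2.81 CPM in ILT3+ samples (exact permutation p = 0.60). Trdv1 had 5, 12 and 8 reads in ILT3- and 7, 17 and 10 in ILT3+ samples, and edgeR did not call it (log2 fold change 0.38). Trdv2-2 had 43, 15 and 7 against 0, 5 and 7 reads, and Trdv4 had 0, 0 and 5 against 0, 19 and 8. Trdv5 had 3, 0 and 6 against 4, 4 and 1 reads. Trdv2-1 and Trgv2 held at most 1 and 4 reads in any library.

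The Tcrg rows set ILT3+ sample 1 apart. They held 78, 3 and 3 reads in ILT3- and 432, 61 and 72 reads in ILT3+ samples, which is 54.4, 6.52 and 7.77 CPM in ILT3+ and at most 13.0 CPM in ILT3- samples. The groups overlapped through ILT3- sample 1 (exact permutation p = 0.30), while the ILT3+ sample was higher within each of the 3 same-numbered pairs. Tcrg-C1, a gamma constant gene, had 35, 1 and 0 against 262, 22 and 43 reads (log2 fold change 2.82, edgeR adjusted p = 0.551). Gamma transcripts also occur in alpha-beta T cells. Marker genes of gamma-delta T cells were mixed. Sox13 had 0 reads in every library, whereas reads of Cd163l1 came only from ILT3+ libraries (19, 31 and 0). Log2 fold changes were 1.24 for Blk, 1.86 for Tcrg-C4 and -0.37 for Etv5. None of these was called (edgeR adjusted p = 0.765, 0.581 and 0.786). Of 14 gamma-delta marker symbols 10 were in the files. Among them Maf, at 42.3, 18.8 and 15.9 CPM in ILT3- and 203, 116 and 129 CPM in ILT3+ samples, was called higher (log2 fold change 2.55, edgeR adjusted p = 0.029). Maf encodes a transcription factor that Tregs can also express, and the part of other T cells in the results on V segments was not tested.

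Segments of invariant T cells stayed at low counts. Trav11, which natural killer T cells use, had 11, 2 and 7 reads in ILT3- and 2, 4 and 5 in ILT3+ samples. Its identical copy Trav11d had 23, 13 and 12 against 14, 3 and 10. Of the Trav11 reads 0 were unique, so how reads divide between these copies is uncertain. Trav1, the segment of mucosal-associated invariant T cells, had 8, 20 and 21 against 19, 2 and 8 reads. The partner segments Traj18 (7, 12 and 24 against 7, 6 and 14 gene reads) and Traj33 (1, 6 and 12 against 12, 6 and 7) overlapped likewise. Of the 7 genes of the list for these cells, none passed the filter. Zbtb16, the defining transcription factor of both lineages, had 0 reads in ILT3- samples and 48, 21 and 0 in ILT3+ samples. Klrb1c, an NK receptor gene, had 244 reads in ILT3+ sample 1 and 0 to 6 elsewhere. The summed level of the 7 was 2.37 to 5.99 CPM in ILT3- and 4.96 to 54.9 CPM in ILT3+ samples.

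Markers of other cells moved with the groups in part. The summed level of 7 dendritic cell and macrophage genes was 10.6 to 17.7 CPM in ILT3- and 31.1 to 430 CPM in ILT3+ samples. Csf1r, the receptor for a macrophage growth factor, had 2810 reads in ILT3+ sample 1 and 2 to 28 elsewhere (edgeR adjusted p = 0.295, and called higher with the block). Of that list, Clec9a had 0 reads throughout and Flt3 at most 2 in any library. Lyz2 had 5.66, 4.21 and 0.479 CPM in ILT3- and 26.7, 7.16 and 7.88 CPM in ILT3+ samples. Cd68 had 2.33, 11.5 and 7.86 CPM against 43.4, 12.0 and 15.4 CPM. Xcr1 had 0, 15 and 19 reads against 0, 84 and 138, and Itgax had 0 in every ILT3- sample against 49, 0 and 1. Of the 4 tested genes of that list edgeR called 0, with 2 at an unadjusted p under 0.05, and DESeq2 called 0. The sum of 5 B cell genes was 19.4 to 36.4 against 33.6 to 78.0 CPM, with 0 of 3 tested called by edgeR, 1 at an unadjusted p under 0.05 and 1 called by DESeq2. The sum of 6 CD8 T cell genes was 22.3 to 48.8 against 30.2 to 58.2 CPM, with 0 of 4 tested called by edgeR or DESeq2 and 0 at an unadjusted p under 0.05. The part of these cells in the results on V segments was not tested.

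Genes of the joining machinery showed no called difference. Rag1 and Rag2, the recombinase that cuts at the segments, and Ptcra, the partner of the beta chain in immature thymocytes, had 0 reads in all 6 libraries. Dntt, which adds bases at the joints, had 0, 15 and 3 reads in ILT3- and 26, 0 and 5 in ILT3+ samples. Of the 9 tested genes of 13, which repair and join DNA ends in many cells, edgeR and DESeq2 called 0, with 0 at an unadjusted p under 0.05.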

How the data were processed

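Total RNA was sequenced in 6 samples, 3 per group. The authors deposited read counts per gene, total and unique, for genes, exons and introns, per the file headers. Coordinates are on GRCm38, per the submitters' processing notes. For aligner, counter, annotation and strand the entry is: not given in the sources used here. Total exon read counts were tested, as the rule for the members names them, and unique or gene reads were alternatives. Total reads include reads that also match elsewhere, so near-identical segments share reads. The 78 J segment rows have 0 annotated exons, so gene reads were used for them. The deposited exon lengths entered only per-length shares, and other normalized columns were not used.

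The whole table was fitted with edgeR 4.0.16 (limma 3.58.1, R 4.3.3). Genes were kept by its filterByExpr function at its defaults (a minimum count of 10 and a total of 15), libraries were scaled by TMM, and group was the one term of a robust quasi-likelihood fit with Benjamini-Hochberg adjustment over all tested genes at 0.05. SE is the log2 fold change over the root of the F statistic. DESeq2 1.42.0 was an alternative. The fit was also run on simulated counts with known changes, and its outcome there is not reported here. Shares used summed Trav or Trbv reads per library. Single values were compared with two-sided exact permutation tests (scipy 1.17.1), which cover 20 splits and reach 0.10 at the lowest. Intervals are Wilson intervals at 95% and reflect counting error alone, as no molecular identifiers were read.

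Named genes were the 10 most used segments per chain, called members, up to 5 segments per chain of at least 1% mean share whose group shares did not overlap, gamma and delta rows of at least 10 reads, invariant segments, and constant and label genes. Other segments and marker genes named in the text were chosen after their values were seen. The members and the 8 lists of 61 symbols were chosen with earlier results of these data known. Tcrg-C rows were added to the gamma-delta list, of which 1 gene is not reported here. Overlapping or antisense genes may share reads, since strand use is not given. Segment sequences are from GENCODE M21 transcripts (GRCm38), in which all 138 members were found by name, 32 with the same start and end as in the files.

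The groups share the sample numbers 1 to 3. Same-numbered samples deviated together from their group means (r = 0.39, 0.26 and 0.27 across genes), above 0.1 in every pair, and the block was therefore treated as a pairing. This comes from the data, since the labels do not state a pairing, and pairs that cross the numbers 2 and 3 were above that bound too (r = 0.12 and 0.17).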

Additional observations from a re-analysis of the deposited data

How the results depend on the processing

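Values here are ILT3+ minus ILT3- differences unless named otherwise. The count of members called by edgeR (1 as reported) was 4 with DESeq2, 4 with the replicate block and 3 without both samples numbered 1, a setting chosen after seeing the data. It was 0 to 1 when single samples were left out, where calls over all genes ranged from 22 to 255. It was 1 with unique reads, gene reads, RLE size factors, library size alone, no filter or family sums. Relative to summed Trav reads, also chosen after seeing the data, it was 0. Trbv12-1 kept its direction in every setting run. Relative to summed Trbv reads, a scaling also chosen after seeing the data, its log2 fold change was -1.20, and -1.24 to -1.17 with single samples left out. The call was lost without ILT3- sample 2 (-1.18), ILT3- sample 3 (-1.18), ILT3+ sample 2 (-1.17) or ILT3+ sample 3 (-1.22). It was kept without ILT3- sample 1 (edgeR adjusted p = 0.0388) or ILT3+ sample 1 (edgeR adjusted p = 0.0251). It held with the replicate block (edgeR adjusted p = 0.00759).

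The differences of the effective number and of the largest share, none of which passed a test, changed sign. The effective number of Trav segments (-0.950 as reported) was 0.757 by family and 0.275 without both samples numbered 1, and -2.8 to 0.497 with single samples left out. For Trbv (-0.305) it was 0.421 by family and -0.651 to 0.110 with single samples left out. The largest Trav share (-0.0631 points) was 0.142 with unique reads and -0.299 to 0.190 with single samples left out, and the largest Trbv share (0.732) was -0.143 by family and -0.410 to 2.09 with single samples left out. Summed Trav (-66.7 CPM) was 38.9 per 1000 reads of Trac, Trbc1 and Trbc2 together, a sum that holds the lower beta constant genes, and -65.8 per 1000 reads of Trac alone. Gamma and delta reads (-1.72 CPM) were 0.260 per 1000 reads of the same 3 constant genes, 1.06 without both samples numbered 1, 16.6 with the Tcrg rows added, and -2.88 to 0.398 with single samples left out. The share of Trav14-3 differed by -0.832 points, and by -1.63 points with gene reads. The causes of these changes were not tested. Summed Trbv and Trav use by position kept their direction in every setting run.

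With the replicate block, the smallest exact p for a single value is 0.25, so pairing could not add a call there. Beyond the members called above and the genes Trbc1, Trbc2 and Csf1r, the block changed no call among the members and listed genes. Depth limits segments below the filter, which holds 30 Trav rows, and shares of single Trav rows.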
